A study of Mus musculus with 6 samples.

Results

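The synaptic vesicle and SNARE genes examined here were the rows of the count table with a symbol of the synaptotagmin (Syt), syntaxin (Stx), syntaxin-binding protein (Stxbp), vesicle-associated membrane protein (Vamp), complexin (Cplx), synapsin (Syn1 to Syn3), Rab3 or SV2 (Sv2a to Sv2c) families, together with Snap25, Snap23, Syp and Unc13a. They were chosen by symbol, with earlier results of these data known, and numbered 65 of the 24421 symbols in the table. RNA was measured by mRNA sequencing in 3 control and 3 neomycin samples of cochlear explants, which are pieces of the inner ear kept in culture, from WT mice at postnatal day 2. Explants were cultured for 12 h, neomycin, an aminoglycoside that kills hair cells (HCs), was given at 1 mM over 6 h, and culture went on for 5 days with EdU, a thymidine analogue, at 10 μM. The sample labels carry this same protocol text for all 6 samples, so the control group is taken as explants without neomycin from its treatment label alone. Each sample was a pool of 6 to 8 cochleae. According to the study's methods the modiolus, the core of the cochlea that houses the neuron bodies, was dissected away. No strain was given, and no source says that replicates came from separate cultures, so p-values measure the spread between these samples, which may be technical.

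Vesicles release transmitter when a SNARE protein of the vesicle (an R-SNARE such as VAMP2) zips together with SNAREs of the plasma membrane (a syntaxin and SNAP-25). Munc13 proteins prepare that assembly, complexins hold and help it, synaptotagmins trigger it on calcium entry, and Rab3 proteins bring vesicles to the active zone. Other SNAREs, such as SNAP-23, syntaxin 4 and VAMP8, serve secretion and membrane traffic in nearly every cell. HCs release glutamate at ribbon synapses and use otoferlin as their calcium sensor, whereas synapsins and synaptophysin are typical of conventional nerve terminals.

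Total counts per library ran from 50471116 to 66068108. A gene was called lower or higher after neomycin where edgeR's quasi-likelihood test gave an adjusted p below 0.05 and the difference exceeded 1.5-fold, and 15988 genes had enough counts to be tested. The explants carried the markers of the tissue. Of 16 HC markers, 13 were lower after neomycin and 0 higher, and their summed level was 1020, 1040 and 1190 CPM (counts scaled to a common library size) in control replicates 1, 2 and 3 and 511, 486 and 438 CPM in neomycin replicates 1, 2 and 3. Of 20 neuron markers, 4 were lower and 0 higher, with summed levels of 359, 281 and 246 CPM in control and 228, 222 and 234 CPM after neomycin. Of the other lists, 1 of 12 Schwann cell and glia markers was lower and 1 higher, 2 of 12 supporting cell (SC) markers were lower, 3 of 10 macrophage markers were higher, 6 of 8 endothelium markers were lower, and 1 of 8 mesenchyme markers was lower and 1 higher. All genes called lower were 6.60% and all called higher 2.24% of those tested. Without control replicate 1, 3 neuron markers were lower and 0 macrophage markers higher, and the counts of the other lists were the same. No marker of these lists was at 3 counts or fewer in every library.

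Control replicate 1 stood apart from the other controls in neuron markers, before any gene of the vesicle families is considered. In that library 10 of the 20 neuron markers were over 1.5-fold above the mean of control replicates 2 and 3, or 50%, against 4.15% of all genes tested. Among the tested vesicle and SNARE genes this held for 5 of 60, or 8.33%, namely Cplx1, Syt2, Syt7, Snap25 and Unc13a. None of the 16 HC markers was that far above the other controls. Control replicate 3 was at the other end, with 9 of the 20 neuron markers, or 45.0%, over 1.5-fold below the mean of the other controls. This also held for 6 of the 60 vesicle and SNARE genes, or 10.0%, against 5.5% of all genes tested. The called genes and the counts of calls are therefore given with and without control replicate 1, and the part of neuron markers in the results was not tested.

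**Figure D1:**
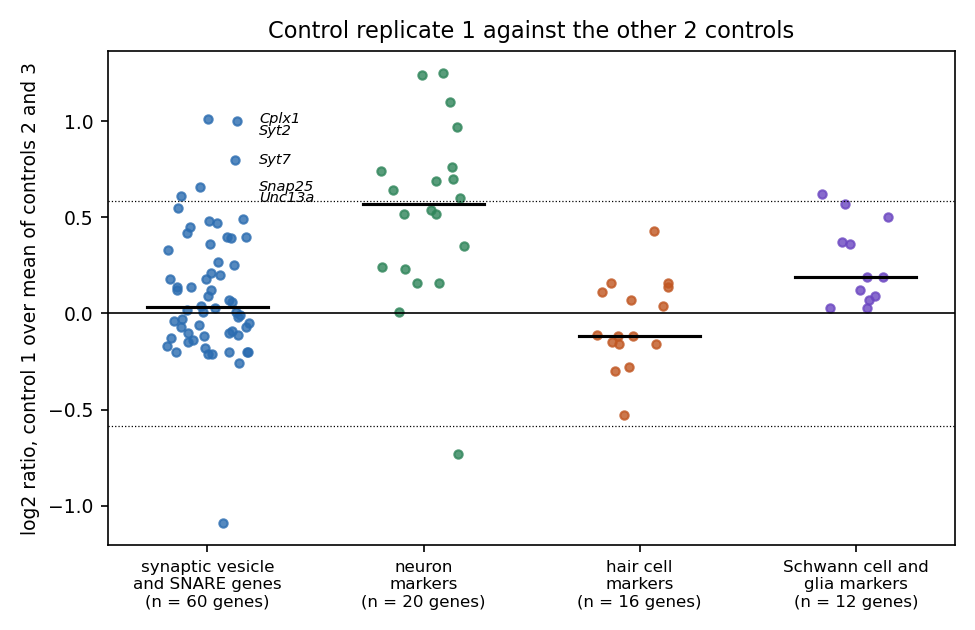
Each point is 1 gene, and the vertical axis gives the log2 ratio of its level in control replicate 1 to the mean of control replicates 2 and 3, with dotted lines at a 1.5-fold difference and a bar at each median. Of 20 neuron markers, 10 lie above the upper line, and among 60 vesicle and SNARE genes the 5 named ones do.

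Of the 65 genes, 60 were tested, and 13 of these fell after neomycin while 1 rose. Those that fell included the plasma membrane SNARE Snap25, the complexin Cplx1, the synaptotagmins Syt2, Syt6, Syt7 and Syt14, the small GTPase Rab3c, and the vesicle proteins Syp, Sv2a, Syn1 and Syn2. The gene that rose was Stxbp6, which encodes amisyn, a SNARE-binding protein that can limit SNARE assembly. Snap23, Stx1a, Stx3, Stx4a, Syt1 and the 7 tested Vamp genes were not called. Since RNA came from whole explants, fewer cells of a type and less RNA per cell cannot be told apart in any of these values.

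The 13 genes make up 21.7% of the tested members, whereas 6.60% of all tested genes were called lower. Of the 13, Syt2 passed the filter on low counts through the control group alone, where it is high, so its call was favoured by that filter. The single gene called higher is 1.67% of the tested members, against 2.24% of all genes called higher and 8.84% called in either direction. At an adjusted p-value under 0.05 with no fold threshold, 18 members were lower and 7 higher, while 16.1% of all genes were lower and 12.9% higher by that rule. These became 13 members lower and 6 higher without control replicate 1, where 1822 of 16145 genes were lower and 1441 higher by that rule. The 3 control and 3 neomycin values did not overlap for 27 of the 60 members, or 45.0%, which is near the 43.5% of all genes. Of those 27, 20 were lower after neomycin and 7 higher, but non-overlap was not split by direction over all genes, so this split has no background to be read against. The median log2 fold change was -0.11 over the members and 0.00 over all genes tested. Without control replicate 1, 7 members were called lower, or 11.7%, against 5.18% of all genes, and 0 were called higher, against 1.96%.

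**Figure D2:**
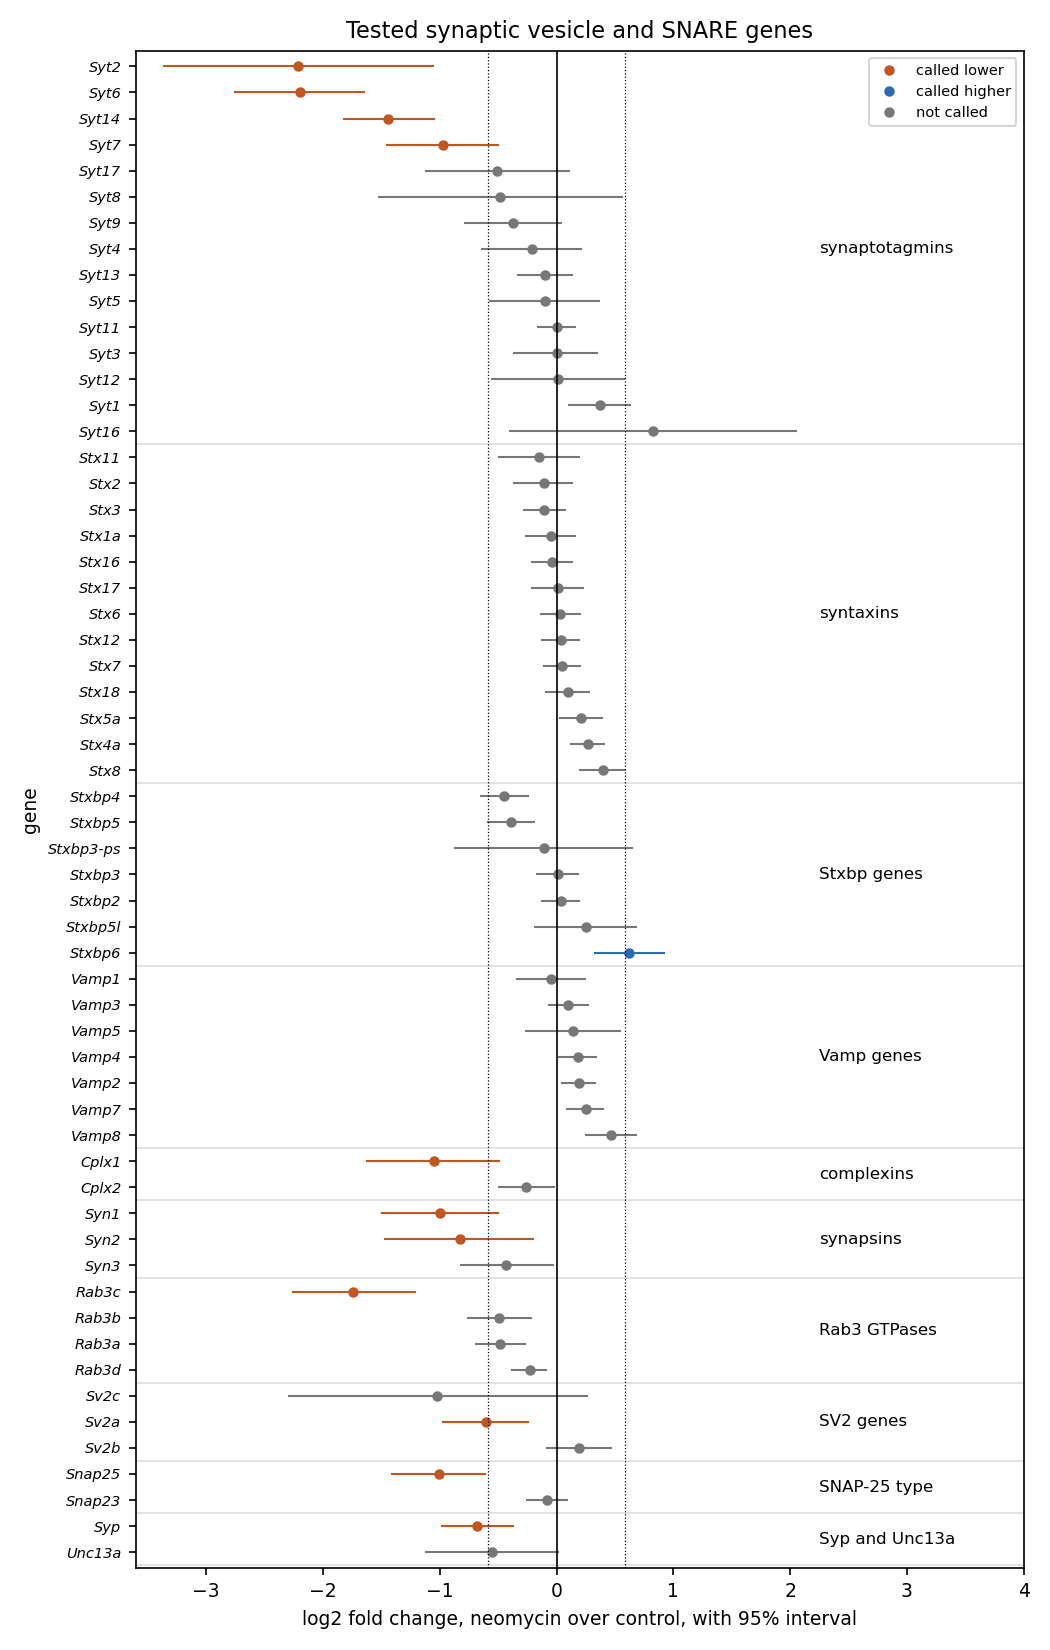
Points are log2 fold changes of neomycin over control for 58 of the 60 tested genes by family, lines are 95% intervals from the edgeR fit, and dotted lines mark a 1.5-fold change. Syt6 and Rab3c lie at -2.20 and -1.74, the interval of Syt2 is wider, no Vamp gene is called, and Stxbp6 is the gene called higher.

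Of the tested genes, 3 passed the filter on low counts through 1 group alone: Sv2c and Syt2 through control and Syt16 through neomycin. Cplx3, Cplx4, Stx19, Syt10 and Syt15 did not pass and were not tested. Cplx3, a complexin of ribbon synapses in the retina, had 0 counts in all 6 libraries, and a count of 0 allows up to 3 counts in a library. Cplx4 had 0 to 5 counts, Stx19 0 to 8, Syt10 7 to 9 and Syt15 0 to 12, so that a difference between the groups was not detectable at this depth. Of the 46 tested genes that were not called, 29 had a 95% interval that lay wholly within a 1.5-fold change in either direction.

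Among the SNAREs of the plasma membrane, Snap25 (chr2:136713453-136782428) encodes SNAP-25, the partner of syntaxins in neurons. Its level was 14.2, 9.37 and 8.59 CPM in control replicates 1, 2 and 3 and 5.27, 4.83 and 5.90 CPM in neomycin replicates 1, 2 and 3. Every control library was above every neomycin library, and control replicate 1 was the highest. The log2 fold change was -1.01 (SE 0.18, edgeR adjusted p = 0.00206), and -0.75 without control replicate 1, where Snap25 was still called. Snap23, its relative in most cell types, measured 54.5, 55.0 and 53.6 CPM in control and 47.4, 56.6 and 50.6 CPM after neomycin, so the groups overlapped, with a log2 fold change of -0.08 (95% interval -0.25 to 0.09). Per kilobase of exon, the ratio of Snap25 to Snap23 was 0.125 ± 0.0351 (SD, n = 3) in control and 0.0660 ± 0.0106 (SD, n = 3) after neomycin. Snap23 thus made up 89.0% of the summed level of the pair per exon length in control and 93.8% after neomycin. All 3 control ratios were above all 3 neomycin ratios, for which the two-sided exact permutation p of 0.1 is the smallest that 3 against 3 libraries allow (0.167 after adjustment over the 10 ratios computed). Not all of these ratios separated the groups. Those of Stx1a to Stx3 (exact permutation p = 0.6), Vamp2 to Vamp3 (0.4), Vamp2 to Vamp8 (0.2) and Rab3a to Rab3d (0.2) overlapped. Stx1a to Stx3 was 1.04 ± 0.0645 (SD, n = 3) in control and 1.07 ± 0.0598 (SD, n = 3) after neomycin. Every other ratio had a p of 0.1 by the same test.

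Among the syntaxins, Stx1a, a SNARE of regulated release in nerve and endocrine cells, measured 20.8, 21.6 and 22.6 CPM in control and 18.6, 20.9 and 23.3 CPM after neomycin, overlapping, with a log2 fold change of -0.05 (95% interval -0.26 to 0.16). Per exon length the ratio of Stx1a to Stx4a, a syntaxin of constitutive secretion, was 0.306 ± 0.00634 (SD, n = 3) in control and 0.246 ± 0.0196 (SD, n = 3) after neomycin, with all 3 control ratios above all 3 neomycin ratios (exact permutation p = 0.1, adjusted 0.167).

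Stx3, the syntaxin used at ribbon synapses of the retina, was 40.7, 47.8 and 46.1 CPM in control and 39.5, 41.3 and 44.2 CPM after neomycin, with overlapping groups and a log2 fold change of -0.11 (95% interval -0.28 to 0.07). Stx4a measured 61.1, 63.1 and 63.9 CPM in control and 72.5, 76.1 and 77.5 CPM after neomycin. All neomycin values of Stx4a were above all control values and its adjusted p was 0.0113, but its log2 fold change of 0.27 was under the 1.5-fold threshold. Stx8, a SNARE of late endosomes, likewise had an adjusted p of 0.00646 at a log2 fold change of 0.40. Of the 14 tested syntaxins, 0 were called higher and 12 had an interval within a 1.5-fold change. Because the strand setting of the counting is not given in the sources used here, reads in exons that overlap another gene on the other strand cannot be assigned, and this holds for a part of Stx4a.

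None of the R-SNAREs was called. Vamp8, which encodes endobrevin, a SNARE of endosomes and of secretion in epithelia, had the highest level per exon kilobase of the 65 genes, with a control mean of 59.3 CPM per kilobase. It measured 126, 132 and 154 CPM in control and 164, 199 and 206 CPM after neomycin, without overlap, and its log2 fold change of 0.47 (SE 0.10, edgeR adjusted p = 0.00505) stayed under the 1.5-fold threshold. Vamp2, the main synaptic R-SNARE of the brain, was 99.0, 104 and 104 CPM in control and 119, 116 and 115 CPM after neomycin, again without overlap, at a log2 fold change of 0.19 (adjusted p = 0.0449). Vamp2 was thus not lower in any neomycin library, whereas Snap25 was lower in all 3. Per exon kilobase the control mean was 26.8 CPM for Vamp2 and 1.58 CPM for Snap25. Whether the RNA of both genes came from the same cells was not tested.

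Vamp3, or cellubrevin, measured 102, 107 and 116 CPM in control and 109, 118 and 123 CPM after neomycin, with overlap and a log2 fold change of 0.10 (95% interval -0.06 to 0.27). Vamp1, the other synaptobrevin, measured 12.1, 11.3 and 9.09 CPM in control and 11.7, 9.49 and 10.3 CPM after neomycin, with a log2 fold change of -0.05 (95% interval -0.34 to 0.24). Of the 7 Vamp genes, 3 were higher by adjusted p alone (Vamp2, Vamp7 and Vamp8), against 12.9% of all genes. At an unadjusted p under 0.05, 4 were higher, against 3025 of the 15988 genes tested. DESeq2 also called 0 of the Vamp genes at the 1.5-fold threshold. Their median log2 fold change was 0.18. It was 0.11 with total count scaling, where 1 of the 7 was higher by adjusted p, as with the gene length correction and without control replicate 2, neomycin replicate 2 or neomycin replicate 3. Without control replicate 1 or neomycin replicate 1, 2 were higher by adjusted p, and the adjusted p of Vamp2 without control replicate 1 was 0.116.

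**Figure D3:**
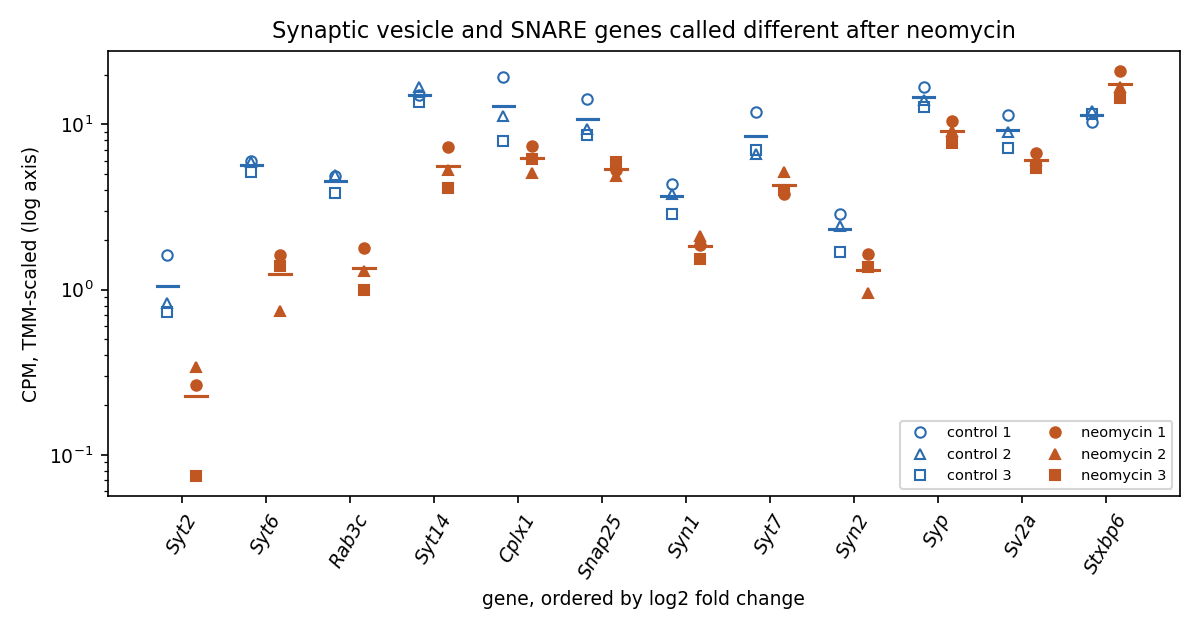
Symbols give the level of each called gene in each library as CPM scaled by TMM on a log axis, open for control and filled for neomycin, and short bars are group means (n = 3). Of the 14 called genes 12 are drawn, control and neomycin overlap in none of them, and control replicate 1 lies over 1.5-fold above the mean of the other controls in Syt2, Cplx1, Snap25 and Syt7.

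Of the syntaxin-binding proteins, which bind syntaxins and prepare or limit their assembly, Stxbp2 and Stxbp3 had log2 fold changes of 0.04 (95% interval -0.12 to 0.19) and 0.01 (95% interval -0.17 to 0.18). Both intervals lay within a 1.5-fold change.

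Stxbp6 (chr12:44852484-45074709) was the gene that rose. It measured 10.3, 12.1 and 11.6 CPM in control and 21.0, 16.9 and 14.4 CPM after neomycin, with a log2 fold change of 0.62 (SE 0.13, edgeR adjusted p = 0.00537). All neomycin libraries were above all control libraries, and neomycin replicate 1 was the highest. The call was lost without that library (0.47), without control replicate 1 (0.56) and with total count scaling (0.56), each time with the adjusted p still under 0.05 and the fold change under the threshold. Stxbp4 (Synip, a syntaxin 4 partner) and Stxbp5 (tomosyn, an inhibitor of SNARE assembly) were lower by adjusted p, at 0.00509 and 0.00854, with log2 fold changes of -0.45 and -0.39 under the threshold. Stxbp3-ps is a pseudogene of Stxbp3, so reads may be split between them and both values are uncertain.

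Unc13a, which encodes the priming factor Munc13-1, was 3.59, 2.55 and 2.12 CPM in control and 1.53, 2.32 and 1.79 CPM after neomycin. The groups overlapped, and the log2 fold change of -0.55 (95% interval -1.12 to 0.01, edgeR adjusted p = 0.131) moved to -0.30 without control replicate 1. Cplx1 (chr5:108518554-108550024), a complexin of fast synapses that binds the assembled SNARE complex, measured 19.4, 11.2 and 7.93 CPM in control and 7.40, 5.05 and 6.20 CPM after neomycin. The groups did not overlap, although control replicate 3 was close to neomycin replicate 1. Its log2 fold change was -1.05 (SE 0.26, edgeR adjusted p = 0.0106) and, without control replicate 1, -0.62 with the call kept, whereas without neomycin replicate 2 it was -0.92 and not called (adjusted p = 0.0581). Cplx2 measured 46.1, 35.9 and 34.0 CPM in control and 34.4, 32.5 and 30.3 CPM after neomycin, overlapping, with a log2 fold change of -0.26 (95% interval -0.49 to -0.02, adjusted p = 0.0975). Per exon length Cplx2 stood at 1.46 ± 0.426 (SD, n = 3) times the level of Cplx1 in control and 2.37 ± 0.429 (SD, n = 3) times after neomycin, with no overlap (exact permutation p = 0.1, adjusted 0.167).

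Of the synaptotagmins, Syt2 (chr1:134646677-134762593), a fast calcium sensor, was tested only because its control level passed the filter on low counts. It measured 1.61, 0.824 and 0.729 CPM in control and 0.264, 0.339 and 0.0745 CPM after neomycin. The groups did not overlap, but counts were low, 41 to 111 reads per control library and 4 to 20 per neomycin library, and control replicate 1 was the highest. The log2 fold change was -2.21 (SE 0.53, edgeR adjusted p = 0.00895), and without control replicate 1 it was -1.76 with an adjusted p of 0.0527, no longer called. As the filter admitted Syt2 through the group where it is high, this value is a description and its call is not support for a decrease. Syt6 (chr3:103575231-103645569) measured 6.03, 5.92 and 5.14 CPM in control and 1.62, 0.746 and 1.38 CPM after neomycin. Its controls were within a narrow range and far above the neomycin libraries, with a log2 fold change of -2.20 (SE 0.25, edgeR adjusted p = 0.000107) and of -2.15 without control replicate 1.

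Syt14 (chr1:192891233-193035775), a member whose C2 domains do not bind calcium, measured 15.0, 16.8 and 13.6 CPM in control and 7.31, 5.32 and 4.11 CPM after neomycin. The groups were far apart and the log2 fold change was -1.44 (SE 0.18, edgeR adjusted p = 0.000166), the same to 2 decimals without control replicate 1. Syt7 (chr19:10389090-10453180), a slow sensor of high calcium affinity, measured 11.8, 6.58 and 6.97 CPM in control and 3.80, 5.12 and 4.02 CPM after neomycin. Control replicate 1 was well above the other controls, and the log2 fold change was -0.97 (SE 0.22, edgeR adjusted p = 0.00651) with it and -0.64 without it, called in both.

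Syt1, the fast sensor of most forebrain synapses, took the opposite direction. It measured 65.0, 49.5 and 51.9 CPM in control and 84.7, 67.7 and 63.2 CPM after neomycin. The groups overlapped through control replicate 1, and the log2 fold change of 0.37 (SE 0.12, adjusted p = 0.0346) was under the 1.5-fold threshold. It was 0.51 without control replicate 1 (adjusted p = 0.00585). The adjusted p of Syt1 was not under 0.05 with total count scaling. Nor was it without control replicate 2, control replicate 3, neomycin replicate 1 or neomycin replicate 2. Over all the alternative fits it reached 0.14, with log2 fold changes from 0.24 to 0.52. Within the family, the share of summed level per exon length held by Syt1 was 19.3% in control and 25.8% after neomycin, while those of Syt6 and Syt14 were 2.85% and 3.69% in control and 0.638% and 1.40% after neomycin. Syt11, a member that does not bind calcium, held the greatest share in both groups, at 40.9% and 42.3%, and had a log2 fold change of 0.00 (95% interval -0.16 to 0.16). Of the 15 tested synaptotagmins, 4 were called lower, Syt2 among them, and 0 higher, against 6.60% and 2.24% of all genes, and the other 3, Syt6, Syt7 and Syt14, were also called without control replicate 1. The 505 bases that exons of Syt6 share with the pseudogene Atg4a-ps on the other strand, and the 384 that Syt7 shares with Gm26859, leave the source of reads in those stretches unknown.

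Of the Rab3 proteins, small GTPases of secretory vesicles that bind RIM at the active zone, Rab3c (chr13:110054187-110280996) fell most. It measured 4.83, 4.91 and 3.86 CPM in control and 1.79, 1.30 and 0.987 CPM after neomycin. The groups were far apart, with a log2 fold change of -1.74 (SE 0.24, edgeR adjusted p = 0.000384) and of -1.68 without control replicate 1. Rab3a, the main form in brain, measured 27.0, 23.0 and 25.9 CPM in control and 19.3, 16.9 and 18.2 CPM after neomycin, without overlap, and its log2 fold change of -0.48 (SE 0.10, adjusted p = 0.00339) was under the 1.5-fold threshold. Rab3b and Rab3d were lower by the same measure, with log2 fold changes of -0.49 (adjusted p = 0.0111) and -0.23 (adjusted p = 0.0224). With all libraries, the 4 Rab3 genes were lower by adjusted p, a rule that 16.1% of all genes met, and their groups did not overlap, as held for 43.5% of all genes, while 1 passed the fold threshold. Only 3 were lower by adjusted p without control replicate 1 (Rab3d 0.0694), as many as without control replicate 2, neomycin replicate 1 or neomycin replicate 3, and 2 without neomycin replicate 2. Rab3d, known from exocrine granules, held 50.1% of the family's level per exon length in control and 54.8% after neomycin.

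Among the proteins of the vesicle itself, Syp (chrX:7638471-7653256) encodes synaptophysin, an abundant protein of the vesicle membrane. It measured 16.9, 14.1 and 12.8 CPM in control and 10.5, 9.15 and 7.74 CPM after neomycin. The groups did not overlap, with a log2 fold change of -0.68 (SE 0.14, edgeR adjusted p = 0.00432). Without control replicate 1 it was -0.55, under the 1.5-fold threshold, with an adjusted p of 0.0156, and without neomycin replicate 3 it was -0.57 and not called either. Sv2a (chr3:96181151-96195521), a vesicle glycoprotein and receptor of botulinum toxin, measured 11.3, 9.03 and 7.22 CPM in control and 6.70, 6.07 and 5.40 CPM after neomycin. The groups were close to each other, with a log2 fold change of -0.60 (SE 0.17, edgeR adjusted p = 0.0185), and the value of -0.42 without control replicate 1 was not called (adjusted p = 0.0852). Nor was Sv2a called without control replicate 2 (-0.61, adjusted p = 0.0560), neomycin replicate 2 (-0.60, adjusted p = 0.0636) or neomycin replicate 3 (-0.53, adjusted p = 0.0664), or with upper quartile scaling or the gene length correction (-0.58 in both). Sv2b had a log2 fold change of 0.19 (95% interval -0.08 to 0.47), and Sv2c, at under 1 CPM in every library, one of -1.02 (95% interval -2.29 to 0.26). Exons of Syp share 875 bases with Gm14703 on the other strand.

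Synapsins coat vesicles and tether them in the reserve pool of conventional terminals. Syn1 (chrX:20860511-20921004) measured 4.35, 3.76 and 2.86 CPM in control and 1.86, 2.10 and 1.53 CPM after neomycin. All controls were above all neomycin libraries, and the log2 fold change was -1.0 (SE 0.23, edgeR adjusted p = 0.00725) with control replicate 1 and -0.84 without it, called in both. Syn2 (chr6:115134902-115282006) measured 2.88, 2.43 and 1.69 CPM in control and 1.64, 0.949 and 1.36 CPM after neomycin. Control replicate 3 and neomycin replicate 1 almost met, and the log2 fold change of -0.83 (SE 0.29) passed the test narrowly (edgeR adjusted p = 0.0488) and not without control replicate 1 (-0.64, adjusted p = 0.187), control replicate 2 (-0.80, adjusted p = 0.135), neomycin replicate 2 (-0.64, adjusted p = 0.175) or neomycin replicate 3 (-0.86, adjusted p = 0.0962). With upper quartile scaling its adjusted p was 0.0531 and with the gene length correction 0.0817. Syn3, whose log2 fold change was -0.43 (95% interval -0.82 to -0.03, adjusted p = 0.0993), overlaps Timp3 on the other strand and shares 1733 exonic bases with it, so its value is uncertain.

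Promoter sequence was examined for genes that fell together. RefSeq windows of the 250 bases before the transcript start (GRCm38.p6) were matched by symbol for 50 of the 65 genes, 10 of the 14 called ones among them. They were searched on both strands for the cyclic AMP response element (CRE) TGACGTCA and for the binding element of the neuronal gene repressor REST (RE1), taken as TCAGCACC and GGACAG separated by any 2 bases. With no mismatch allowed, the whole RE1 was in 0 of the 50 genes and in 0.0259% of 27025 genes with a window. The CRE was in 2 of the 50, Syn1 and Stxbp3, or 4.0%, and in 1.77% of all genes. After the Syn1 window had been seen, the first RE1 stretch was also searched alone, and it was in Syn1 only of the 50 genes and in 1.49% of all genes. In Syn1 that stretch is followed, after 2 bases, by ggtcag, which differs from GGACAG in a single base. Such near matches were not searched for in the other windows. The windows are shown because Syn1 fell and Stxbp3 was not called, and capitals mark the CRE in both and the first RE1 stretch nearer the 5′ end in Syn1:
Syn1: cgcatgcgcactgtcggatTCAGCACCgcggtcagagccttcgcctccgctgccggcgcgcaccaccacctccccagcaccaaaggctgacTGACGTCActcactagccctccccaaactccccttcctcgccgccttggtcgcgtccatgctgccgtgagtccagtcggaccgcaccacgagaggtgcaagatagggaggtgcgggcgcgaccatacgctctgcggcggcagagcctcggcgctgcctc
Stxbp3: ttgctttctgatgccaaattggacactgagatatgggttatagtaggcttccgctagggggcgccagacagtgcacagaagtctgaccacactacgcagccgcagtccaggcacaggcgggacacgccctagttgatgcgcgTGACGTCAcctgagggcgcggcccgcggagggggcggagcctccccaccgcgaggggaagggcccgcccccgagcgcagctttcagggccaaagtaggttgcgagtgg
The Syn1 window is chrX:20920919-20921168 on the minus strand, with the CRE starting 159 bases and the RE1 stretch 231 bases before the RefSeq start. Part of this window lies within the gene as GENCODE draws it. The Stxbp3 window is chr3:108840503-108840752, also on the minus strand, with the CRE starting 108 bases before the start. Part of the Stxbp3 window likewise lies within its gene as GENCODE draws it. Both genes have the CRE, and their log2 fold changes were -1.0 and 0.01. These matches describe letters in the windows and not bound sites.

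Leaving out control replicate 1 separated the called genes into 2 sets. The call was kept for Syt6, Rab3c, Syt14, Cplx1, Snap25, Syn1 and Syt7 and was lost for the others, among them Syt2, Syn2, Syp, Sv2a and Stxbp6. Every one of the 14 kept its direction. Over 16 other fits, which changed the tool, the scaling, the filter, the gene length correction, the replicate term or the libraries included, 6 genes were called each time: Syt6, Rab3c, Syt14, Snap25, Syn1 and Syt7. For Syt6 the log2 fold change ranged from -2.43 to -1.93 over those fits, for Rab3c from -1.98 to -1.52, for Syt14 from -1.68 to -1.23, for Snap25 from -1.14 to -0.75, for Syn1 from -1.13 to -0.84 and for Syt7 from -1.12 to -0.64. Of these 6, Syt6, Syt14 and Rab3c moved least when control replicate 1 was left out. Only Snap25 and Syt7 of the 6 were over 1.5-fold above the other controls in that library. Both measures rest on the level of that library, so neither is separate support for the other.

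**Figure D4:**
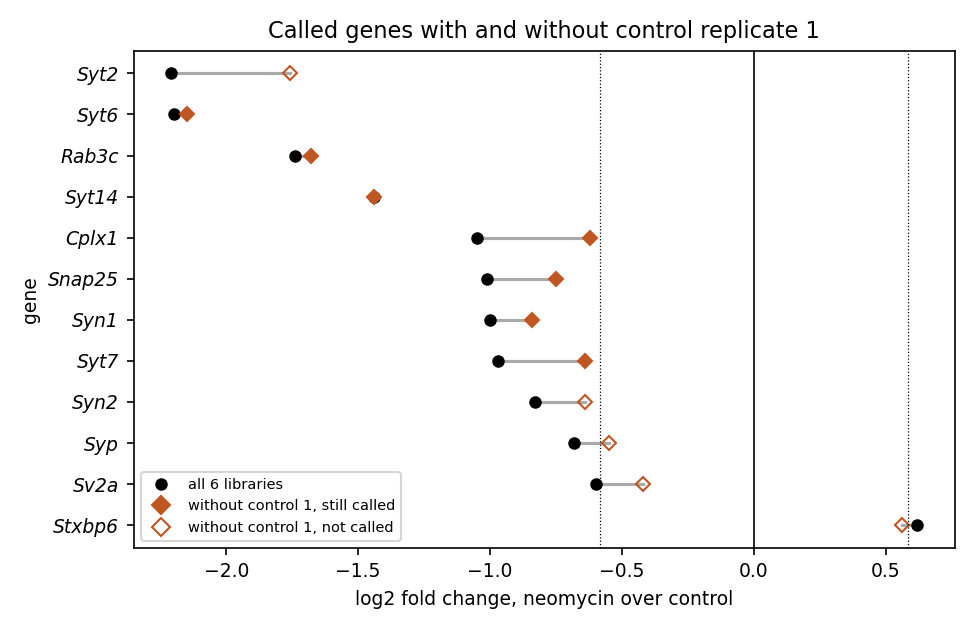
Black circles give the log2 fold change of 12 of the 14 called genes with all 6 libraries and diamonds the value without control replicate 1, filled where the gene was still called; dotted lines mark a 1.5-fold change. Syt6, Rab3c and Syt14 stay at -2.15, -1.68 and -1.44, whereas Cplx1 moves from -1.05 to -0.62.

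The other genes of the vesicle cycle were examined from 4 lists, of vesicle fusion factors and tethers, active zone scaffolds, other vesicle membrane proteins and vesicle endocytosis. Of 95 genes listed, 94 were in the table and 90 were tested, of which 13 fell and 2 rose, against 6.60% and 2.24% of all genes, so that the higher count is near the background. Their median log2 fold change was -0.21. Leaving out control replicate 1 gave 12 lower and 3 higher. Among 26 fusion factors and tethers, 2 fell, a share near that of all genes. Otof, the otoferlin gene and also a HC marker, measured 83.7, 73.6 and 77.9 CPM in control and 19.0, 15.2 and 12.4 CPM after neomycin, far apart, with a log2 fold change of -2.34 (SE 0.13, edgeR adjusted p = 2.05e-07). Napb, a neuronal SNAP protein that helps take spent SNARE complexes apart, changed by -1.0 on the log2 scale (adjusted p = 0.00106). Unc13b, the Munc13-2 gene, was not called at -0.09 (95% interval -0.30 to 0.12).

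Active zone scaffolds gave the greatest count of the 4 lists, with 6 of 17 tested genes lower and 0 higher, against 6.60% and 2.24% of all genes. All 6 were called without control replicate 1, where 5.18% of all genes were called lower. Rimbp2, a RIM-binding protein that holds calcium channels near vesicles, was 1.94, 1.82 and 1.97 CPM in control and 0.565, 0.373 and 0.298 CPM after neomycin, without overlap, with a log2 fold change of -2.21 (SE 0.33, edgeR adjusted p = 0.000683). Rims3 and Rims2, which encode RIM proteins of the active zone, had log2 fold changes of -2.01 (adjusted p = 0.00160) and -1.06 (adjusted p = 0.000352). Lin7a, a scaffold protein, followed at -1.15 (adjusted p = 0.000126). The large scaffolds Bsn (bassoon) and Pclo (piccolo), and Rims1, were not called, with log2 fold changes of -0.92 (95% interval -1.65 to -0.19, adjusted p = 0.0570), -0.21 (95% interval -0.64 to 0.22) and -0.45 (95% interval -1.21 to 0.31).

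Of 23 other vesicle membrane proteins tested, 2 fell and 1 rose, against 6.60% and 2.24% of all genes, so that both counts are near the background. Slc17a8, the glutamate transporter VGLUT3 of inner HCs and also a HC marker, measured 11.9, 9.99 and 11.4 CPM in control and 6.55, 6.44 and 5.03 CPM after neomycin, without overlap and with a log2 fold change of -0.88 (SE 0.14, edgeR adjusted p = 0.000863). Sncb (beta-synuclein) changed by -1.12 on the log2 scale (adjusted p = 0.0473) but lost its call without any 1 of control replicates 1 (-0.72, adjusted p = 0.241) and 2 (-1.07, adjusted p = 0.133) and neomycin replicates 1 (-1.19, adjusted p = 0.0643), 2 (-0.98, adjusted p = 0.155) and 3 (-1.20, adjusted p = 0.0804). Of 24 endocytosis genes 3 fell and 1 rose, against the same shares of all genes. Dnm3, a dynamin, changed by -1.60 on the log2 scale (adjusted p = 7.33e-06), Amph (amphiphysin) -0.82 (adjusted p = 0.000316) and Pacsin1 (syndapin 1) -0.67 (adjusted p = 0.0144), while Sh3gl3 (endophilin A3) rose by 0.98 on the log2 scale (adjusted p = 0.000456). Pacsin1 was not called without control replicate 2 (-0.64, adjusted p = 0.0570), neomycin replicate 2 (-0.65, adjusted p = 0.0591) or neomycin replicate 3 (-0.49, adjusted p = 0.0474).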

How the data were processed

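RNA of 3 control and 3 neomycin samples was sequenced. Per the labels and the study's methods, the authors called bases with Casava 1.8, trimmed reads with Trimmomatic 0.23, aligned them to mm10 with HISAT2 and counted them with HTSeq, and deposited raw counts per gene symbol; strand setting and treatment of multiply mapped reads are not given in the sources used here. The authors' own tests were made with DESeq2. Library totals were 50471116 to 66068108, and their size limits the precision of genes with few reads.

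Counts were scaled by TMM and genes filtered with filterByExpr. The groups were compared with the quasi-likelihood test of edgeR 4.0.16 (R 4.3.3), with Benjamini-Hochberg adjustment over all 15988 genes tested. A call needed both an adjusted p below 0.05 and more than a 1.5-fold difference. Ratios between genes within a library were taken per exon kilobase and compared by two-sided exact permutation tests. Exon lengths, gene positions and overlaps came from GENCODE M21 (GRCm38), and promoter windows from RefSeq (GRCm38.p6). Alternatives were DESeq2 1.42.0, limma-voom (limma 3.58.1), 3 other scalings, 2 other filters, other fold thresholds, a replicate block, a gene length correction (lowess, span 0.3) and leaving out each library. Code was tested on simulated data. Plots used Python 3.11.15 and matplotlib 3.10.9.

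The genes, the 4 pathway lists and the 7 marker lists (hair cells, neurons, Schwann cells and glia, supporting cells, macrophages, endothelium, mesenchyme) were chosen with earlier results of these data known. The genes named were every called member, a fixed core of 20 genes (Stx4 is Stx4a in the table), the called pathway genes with at most 4 a direction and list, 7 further pathway genes, and the members of highest and lowest level per exon kilobase. Others are named as exceptions to a count or as members of a family, chosen after their values were seen. Some named genes are not reported here by name or value, and counts over all members and lists include them.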

Additional observations from a re-analysis of the deposited data

How the results depend on the processing

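The 13 members called lower and 1 called higher were also 13 and 1 with DESeq2, limma-voom, median-of-ratios scaling and every gene with a count. A fold change over 2 left 6 lower and 0 higher, no fold threshold gave 7 higher, and total count scaling gave 0 higher. Leaving out 1 library gave 7 to 14 lower and 0 to 1 higher, with 7 lower and 0 higher without control replicate 1, 8 lower without neomycin replicate 3, and 0 higher without neomycin replicate 1. For all genes, 1055 lower and 358 higher became 2571 and 2058 with no fold threshold and 565 and 121 over 2-fold, higher calls became 233 with total count scaling and 229 with the gene length correction, alone or with the replicate block, and leaving out 1 library gave 800 to 1159 lower and 237 to 513 higher. For the 4 pathway lists, 13 lower and 2 higher became 26 lower with no fold threshold, 0 higher over 2-fold, and 1 higher with total count scaling or with the gene length correction, alone or with the block, and leaving out 1 library gave 11 to 17 lower and 1 to 3 higher, the 1 arising without control replicate 2, neomycin replicate 2 or neomycin replicate 3. The cause of these shifts was not tested.

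Same-numbered samples of the 2 groups correlated at 0.165, 0.0264 and 0.0949 over 15988 genes. Control replicates 1 and 3 correlated best with the neomycin replicate of the same number, and control replicate 2 with neomycin replicate 3 (0.0325). Whether same-numbered samples were paired cannot be told from these values. With the replicate block, 13 members were lower and 1 higher, 1089 and 376 of all genes, and 14 and 2 of the pathway lists. By adjusted p with no fold threshold, the block gave 20 members lower and 9 higher, against 18 and 7 without it. For all genes it gave 3229 lower and 2785 higher by that rule, against 2571 and 2058.

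Of the values of named genes over the alternatives, 622 kept direction and side of the threshold, 47 dropped below it, 7 passed it and 11 changed sign. With the gene length correction the log2 fold change was 0.14 for Vamp1, 0.09 for Pclo and 0.21 for Unc13b, and with the block added 0.14, 0.10 and 0.21. Without control replicate 1 it was 0.05 for Vamp1, 0.03 for Pclo and 0.03 for Unc13b, without neomycin replicate 2 it was 0.02 for Vamp1, and without neomycin replicate 1 it was 0.03 for Stx1a. Over the fits without 1 library the values ran from -0.15 to 0.05 for Vamp1, -0.13 to 0.03 for Stx1a, -0.35 to 0.03 for Pclo and -0.16 to 0.03 for Unc13b. None of these 4 genes was called. Over all the alternative fits the lowest adjusted p was 0.0162 for Unc13b, which is under 0.05, and 0.145 for Stx1a, 0.198 for Pclo and 0.352 for Vamp1. Syt2 had no value where 10 counts in every library were required. At this depth, genes with few reads, such as Syt2, Sv2c and Syt16, have wide intervals, and a whole-explant measurement does not resolve the cells that the RNA came from.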
